A study of Mus musculus with 4 samples.

Results

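Clca1, Clca3b, Clca4a and Clca4b are the 4 genes of the CLCA family described here across the epithelial cell classes of mouse colonic organoids. They were chosen by symbol from a gene table of 30360 genes, in which 7 genes carry a CLCA name. Organoids are epithelial cultures kept in a gel matrix, and these were started from the distal colon of wildtype mice and of Tnfr2-/- mice. The Tnfr2-/- mice lack a working Tnfrsf1b, the gene for TNF receptor 2. The labels give an age of 16 weeks for both, whereas the study's methods give a younger age for its colonic cultures. After passage 5 the TNF cultures were kept with 20 ng/ml of the cytokine TNF (tumor necrosis factor) between day 1 and day 6, and the untreated cultures received vehicle. On day 7 the cells of every culture were depleted of apoptotic cells and made into a 3′ single-cell library. There was 1 culture and 1 library per group, and 4 values given in a row are those of untreated wildtype, TNF-treated wildtype, untreated Tnfr2-/- and TNF-treated Tnfr2-/-. With 1 library per group there is no replicate and no test between groups, so each difference below is between single cultures.

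The names of CLCA genes go back to calcium-activated chloride channels, but the proteins are secreted or shed regulators that carry a metalloprotease domain and cleave themselves. CLCA1 is a secreted product of goblet cells, a main non-mucin protein of colonic mucus, and it can raise the current of the calcium-activated chloride channel encoded by Ano1. Clca4a and Clca4b are the mouse counterparts of the single human gene CLCA4, which is known from mature enterocytes and surface colonocytes.

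The libraries held 980 to 2589 cells, of which 858 to 1163 per library carried 1 of the 7 epithelial class names that the authors deposited. Epithelial cells held 39776200 to 50648198 unique molecular identifiers (UMIs, each standing for 1 captured RNA molecule) per library. The class mix differed strongly between libraries. Absorptive cells made up 28.3%, 1.63%, 1.08% and 0.117% of epithelial cells, and Progenitor.2 cells made up 5.50%, 23.5%, 22.8% and 83.4%. Secretory-Reg4-Ang4 was found in wildtype TNF alone, with 246 cells whose median was 1957.5 UMIs. The class names were set against marker lists that leave out the CLCA genes. The 6 absorptive markers summed to 11947 UMIs per 1000000 UMIs (CPM) in the 319 Absorptive cells of wildtype untreated, and the 6 goblet markers to between 50422 and 52548 CPM in Secretory-Reg4-Spdef-Lyz1 cells of the 3 libraries with at least 20 of them. Progenitor.2 was mixed by the same lists, with 603 to 3441 CPM of absorptive and 73.8 to 2829 CPM of goblet markers. Xist stood at 558 and 683 CPM in wildtype and at 0.158 and 0.101 CPM in Tnfr2-/- epithelium, so that genotype and the sex of the donors cannot be told apart. Tnfrsf1b itself was found at 4.17, 12.1, 1.82 and 6.89 CPM, and since 3′ reads can lie outside a deleted part, this checks nothing. 3 cell barcodes occurred in 2 libraries each.

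All 7 CLCA genes lie side by side on the minus strand of chromosome 3 (GRCm38, GENCODE M21). Clca3b (ENSMUSG00000037033) lies at chr3:144822623-144849357, Clca4b (ENSMUSG00000074195) at chr3:144910921-144932529, Clca4a (ENSMUSG00000068547) at chr3:144952480-144975045 and Clca1 (ENSMUSG00000028255) at chr3:145003817-145032776. Each of them is protein coding and has 14 exons. Clca4a and Clca4b are the closest pair among the 4, with 96.0% identity over 2778 coding bases, whereas Clca1 shares 67.0% to 68.0% with the other members. Their longest shared run is 168 bases over the whole transcripts but 37 bases in the last 500 bases, where 3′ reads mostly fall. The ends of both coding sequences are shown because every result that sets Clca4a against Clca4b rests on telling them apart there. The 60 bases lie in the last exon and end with the stop codon, at chr3:144952675-144952734 for Clca4a and chr3:144911110-144911169 for Clca4b, and capitals mark the 5 positions that differ.
Clca4a: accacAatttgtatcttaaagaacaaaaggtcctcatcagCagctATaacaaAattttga
Clca4b: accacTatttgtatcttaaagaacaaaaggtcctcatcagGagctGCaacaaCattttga

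Clca3b shares 87.4% of aligned coding bases with Clca3a1 and also with its neighbour Clca3a2. In the last 500 bases its longest shared runs with them are 12 and 8 bases. RefSeq promoter windows (250 bases before to 50 after the start, GRCm38.p6) were at hand for 5 of the 7 genes, Clca1 and Clca4a not being among them. The windows of Clca3b and Clca3a2 share an unbroken run of 79 bases, and all other pairs of windows share at most 9. The stretch where this run begins is shown, since no other pair of windows shares such a run. It lies at chr3:144849358-144849417 for Clca3b, directly before the annotated gene. For Clca3a2 it lies at chr3:144819542-144819601, with its last base 48 bases before the annotated gene. Only the end of the stretch is alike, so that the run of 79 bases goes on into the annotated Clca3b gene. Capitals mark the 29 positions that differ.
Clca3b: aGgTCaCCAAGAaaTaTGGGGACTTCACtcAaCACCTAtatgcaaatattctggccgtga
Clca3a2: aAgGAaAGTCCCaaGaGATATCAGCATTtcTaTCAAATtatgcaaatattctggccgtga
Both hold the octamer ATGCAAAT, searched on both strands after these windows had been read and present in 1.74% of 32851 promoter windows. TTTATG was found in the windows of Clca3b, Clca3a2 and Clca4b and in 11.9% of all windows, and TATAAA in that of Clca4b and in 13.6% of all windows. These matches are descriptions of letters, and no binding was measured.

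The classes that held the RNA differed between members and libraries. In wildtype untreated, Clca3b RNA lay mostly in Progenitor.1, Clca4a and Clca4b lay mostly in Absorptive cells, and Clca1 was close to absent. The plot of levels by class gives every value. Levels are given as CPM, the UMIs of a gene per 1000000 UMIs of the summed cells, with exact Poisson 95% intervals that cover counting error only, and they are compared between classes and libraries and not between genes. In mesenchymal cells, which should lack these genes, Clca1 had 0 UMIs in 1948 cells, which allows up to 0.0531 CPM, and Clca3b, Clca4a and Clca4b had 0.478, 0.0354 and 0.213 CPM.

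**Figure D1:**
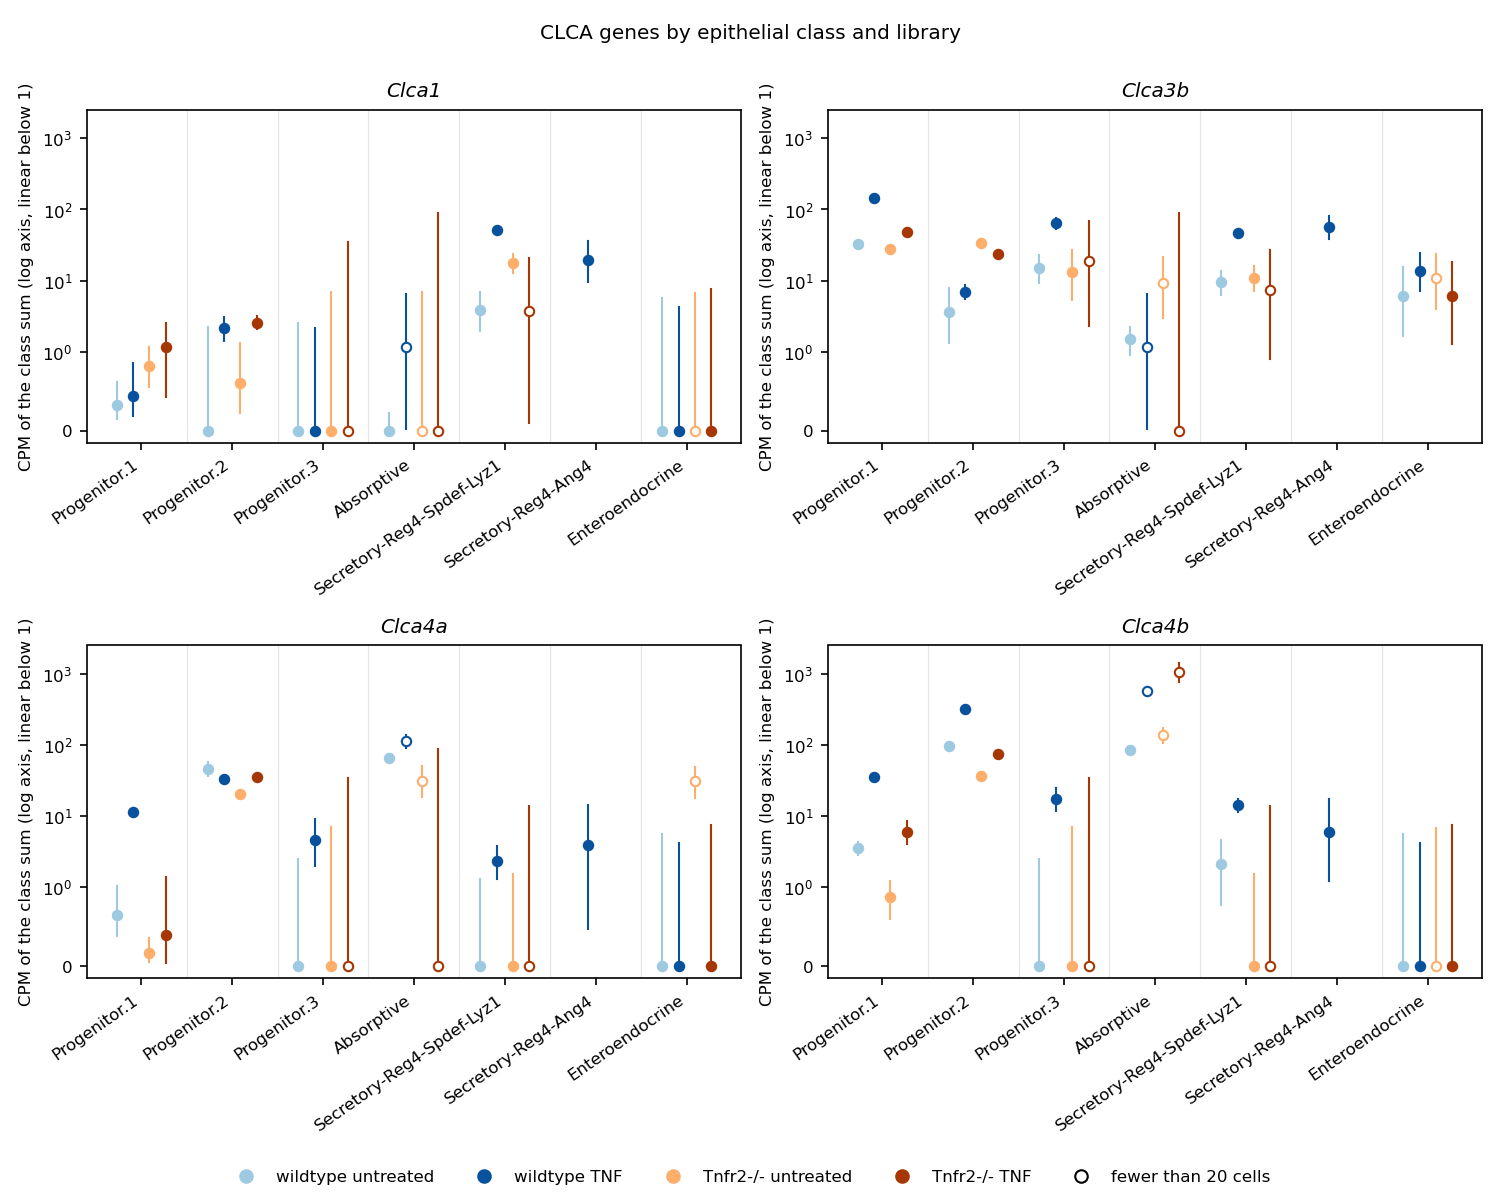
Level of each member in CPM (y axis, linear below 1 and logarithmic above) in each epithelial class (x axis), with 1 point per library and exact Poisson 95% intervals as bars; hollow points rest on fewer than 20 cells. Clca3b stands highest in Progenitor.1 of wildtype TNF at 144 CPM, and Clca4b is at 321 CPM in Progenitor.2 of the same library, below the Absorptive points that rest on 19 cells and 1 cell.

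Clca1, the goblet cell product, was the rarest member, with 20, 380, 78 and 94 UMIs over all epithelial cells. These are 0.397, 9.19, 1.54 and 2.36 CPM, and the interval of the highest, wildtype TNF, was 8.29 to 10.2 CPM. Only 0.532%, 3.53%, 3.23% and 4.31% of epithelial cells had a UMI of it, against 0 of 1948 mesenchymal cells. Within Secretory-Reg4-Spdef-Lyz1 the level was 3.87, 51.8, 17.6 and 3.74 CPM, from 11, 334, 42 and 1 UMIs. Wildtype TNF was the highest of the 4 there and Tnfr2-/- untreated came next, with intervals of 46.3 to 57.6 and 12.7 to 23.7 CPM. These do not overlap, but they cover counting error only, and 1 wildtype TNF cell of this class held 88 of the 334 UMIs. Tnfr2-/- TNF had 8 cells of this class. Even in that class Clca1 was found in a minority of cells, in 4 of 73, 21 of 111, 12 of 63 and 1 of 8. Secretory-Reg4-Ang4 had 10 UMIs of Clca1 in 3 of 246 cells (19.6 CPM, 9.41 to 36.1). Clca1 had 0 UMIs in Progenitor.3 and Enteroendocrine cells of every library and 1 UMI in all 350 Absorptive cells.

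The few cells with Clca1 carried most of its RNA. In wildtype TNF 1 cell held 88 UMIs of it, 3 cells held at least 50% of the 380 UMIs, and the top 10 cells held 85.0%. Those 10 cells were among 41 with any UMI. In Tnfr2-/- TNF the RNA lay elsewhere, since 92.6% of the 94 UMIs came from Progenitor.2 and 1.06% from Secretory-Reg4-Spdef-Lyz1. In the other libraries Secretory-Reg4-Spdef-Lyz1 held 55.0%, 87.9% and 53.8% of the UMIs. Most of the remainder in the untreated cultures lay in Progenitor.1, with 9 of 20 UMIs in wildtype and 30 of 78 in Tnfr2-/-. In the TNF cultures Progenitor.1 held 8 of 380 and 6 of 94 UMIs. The cell with the most Clca1 in wildtype untreated, with 8 UMIs, was a Progenitor.1 cell.

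**Figure D2:**
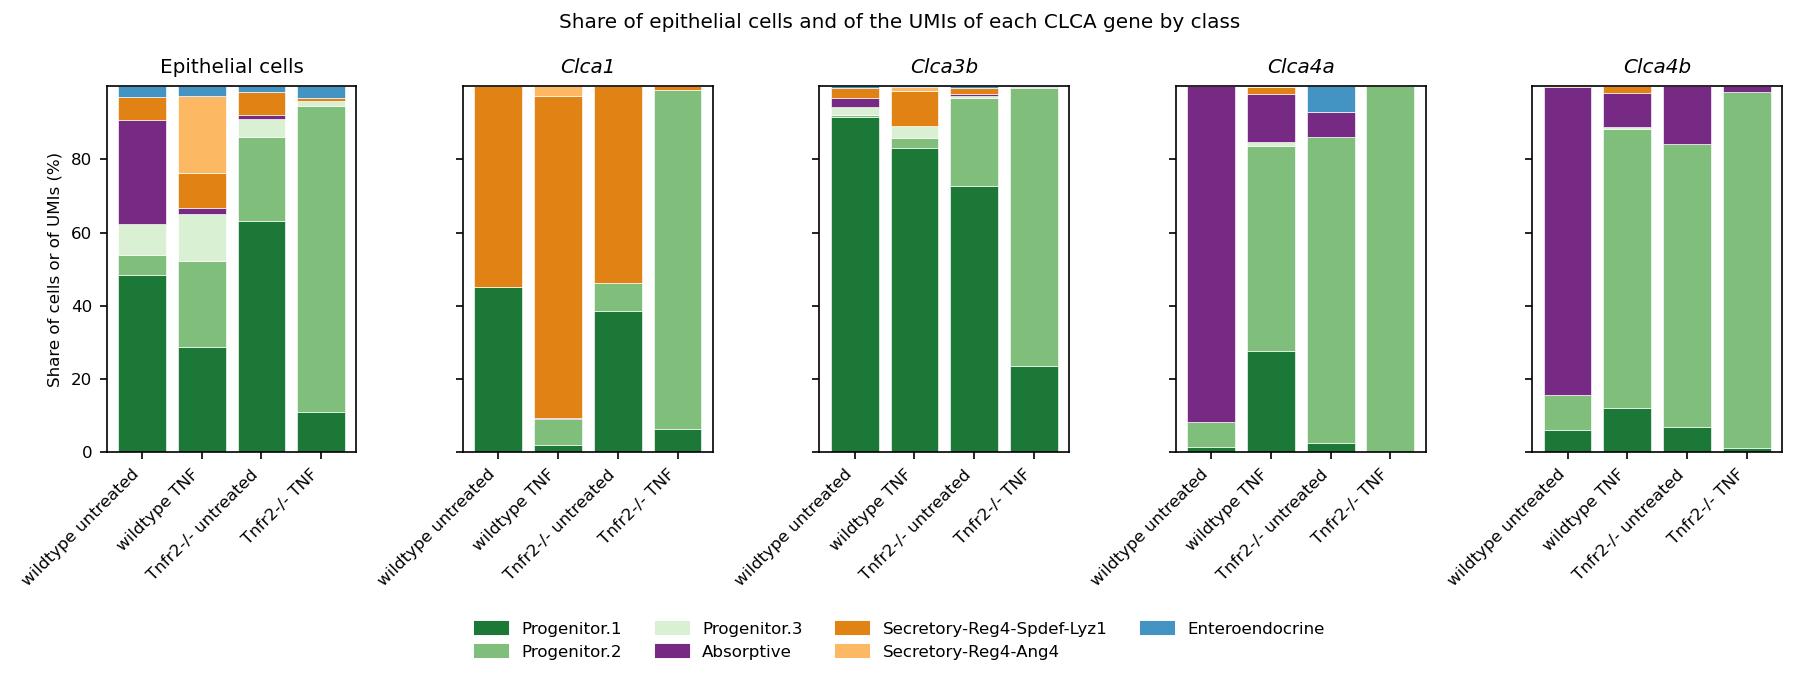
Stacked bars of the percent of epithelial cells and of the UMIs of each member (y axis, percent) that fall in each epithelial class, with 1 bar per library. Progenitor.2 takes 83.4% of the cells of Tnfr2-/- TNF and 99.8% of its Clca4a UMIs, 97.1% of its Clca4b UMIs and 92.6% of its Clca1 UMIs.

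Cells with a Clca1 UMI were set against cells of the same class and library without one, and the goblet genes did not all differ in the same direction. In Secretory-Reg4-Spdef-Lyz1 of wildtype TNF, Zg16, a lectin-like goblet cell protein, stood at 6444 CPM in the 21 cells with Clca1 and at 493 CPM in the 90 cells without. A Zg16 UMI was found in 13 of the 21 and 38 of the 90 cells. Muc2, the gel-forming mucin of the colon, stood at 2954 against 2112 CPM, and Fcgbp, a mucus protein bound to Muc2, at 2559 against 972 CPM. Lyz1, a lysozyme, went the other way with 431 against 2784 CPM, as did the proliferation gene Mki67 with 18.7 against 111 CPM. A Lyz1 UMI was found in 15 of the 21 and 67 of the 90 cells, and an Mki67 UMI in 8 and 43. Agr2, a disulfide isomerase of secretory cells, was also lower in the cells with Clca1, at 7168 against 9454 CPM, as were the goblet cell transcription factor Spdef, at 89.5 against 156 CPM, and Reg4, at 699 against 1114 CPM. Spink4 was at 20100 against 21424 CPM. The cells with Clca1 were somewhat deeper, with a median of 55401 against 46435 UMIs, and the part of depth in this was not tested.

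The same class of Tnfr2-/- untreated also had more Zg16 in its 12 cells with Clca1 (3645 CPM) than in its 51 cells without (96.3 CPM), and more Muc2 (1310 against 389 CPM). A Zg16 UMI was found in 6 of the 12 and 13 of the 51 cells. Lyz1 there went with Clca1 rather than against it, at 10170 against 4153 CPM. In Progenitor.2 of Tnfr2-/- TNF the 31 cells with Clca1 had 13835 CPM of Tff3, a trefoil peptide of goblet cells, against 963 CPM in the 685 cells without. Muc2 was at 261 against 8.64 CPM and Spink4 at 6434 against 356 CPM in these cells. Their median depth was 52474 against 37364 UMIs. The Clca1 cells of this library thus carried goblet genes under the class name Progenitor.2, and of 2 absorptive genes Car1 was lower in them (287 against 522 CPM) and Krt20 higher (89.8 against 51.2 CPM).

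**Figure D3:**
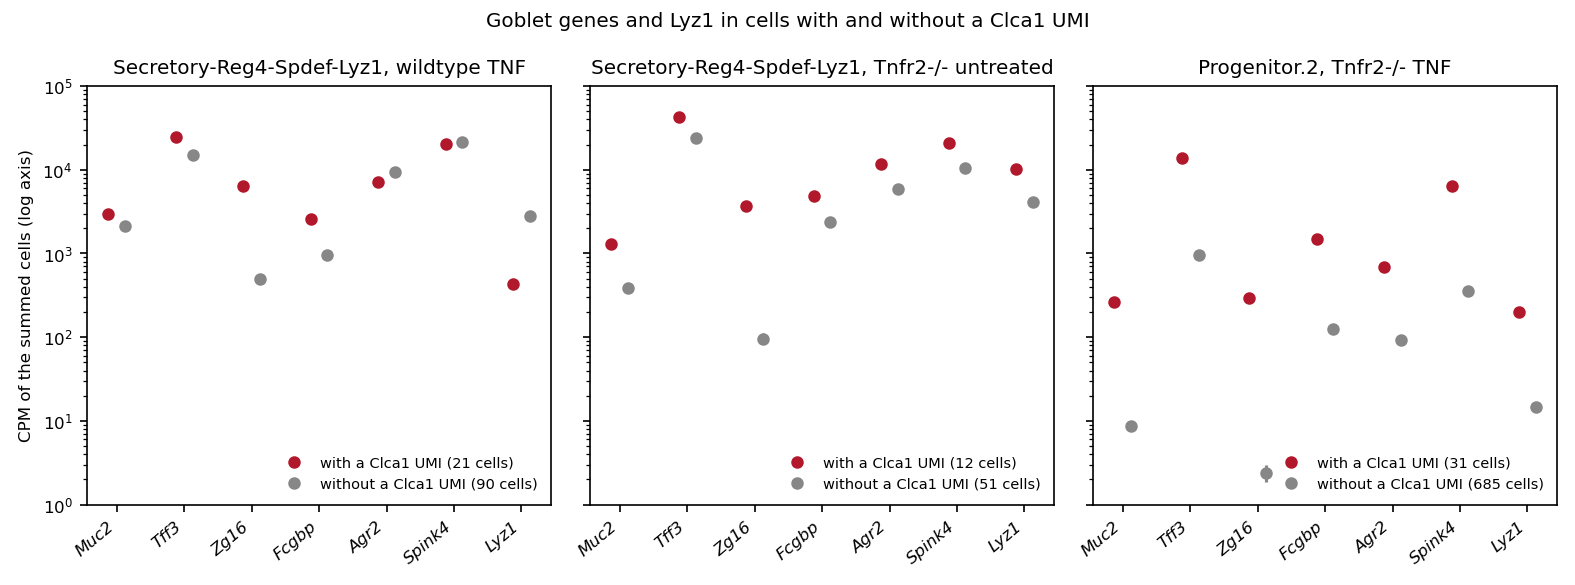
Level in CPM (y axis, logarithmic) of Muc2, Tff3, Zg16, Fcgbp, Agr2, Spink4 and Lyz1 (x axis) in cells with and without a Clca1 UMI, in 3 class and library pairs, with exact Poisson 95% intervals. In Progenitor.2 of Tnfr2-/- TNF every gene shown is higher in the cells with Clca1, and in wildtype TNF secretory cells Lyz1 is lower in them.

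Clca3b had most of its RNA in Progenitor.1, except in Tnfr2-/- TNF, where Progenitor.2 held 75.8% of its UMIs. Over all epithelial cells it had 975, 3171, 1399 and 1062 UMIs, which are 19.4, 76.7, 27.6 and 26.7 CPM, so that wildtype TNF stood apart from the other 3. In Progenitor.1, the class with the highest proliferation markers beside Progenitor.3, the level was 32.3, 144, 27.7 and 48.8 CPM. The share of Progenitor.1 cells with a Clca3b UMI was 38.8%, 74.9%, 39.7% and 61.1%, and after every cell was thinned to 5000 UMIs it was 16.3%, 37.9%, 13.2% and 18.1%. In mesenchymal cells, whose median depth was 24817 against 44897 UMIs in Progenitor.1, 0.616% had a UMI and 0.0521% after thinning. Progenitor.1 held 91.5%, 82.9%, 72.8% and 23.5% of the gene's epithelial UMIs.

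Outside Progenitor.1 the pattern of Clca3b depended on the library. Progenitor.2 had 3.57 and 6.94 CPM in the wildtype libraries but 34.0 and 23.9 CPM in the Tnfr2-/- libraries, where the intervals of 30.5 to 37.8 and 22.2 to 25.6 CPM lay above both wildtype values. In Tnfr2-/- untreated the Progenitor.2 level was also above the 27.7 CPM of Progenitor.1. In Progenitor.3 the level was 15.0, 63.7, 13.2 and 18.8 CPM, and in Secretory-Reg4-Spdef-Lyz1 9.51, 46.8, 10.9 and 7.47 CPM, so that wildtype TNF was the highest library in both. Absorptive cells of wildtype untreated had 1.49 CPM, the lowest level of Clca3b among its classes. The RNA of Clca3b was spread over more cells than that of the others, and it took 48, 58, 50 and 37 cells to reach 50% of it. Within Progenitor.1, thinned cells with Lgr5, the receptor that marks crypt stem cells, had Clca3b in 28.7%, 48.8%, 19.1% and 15.8% and those without Lgr5 in 13.0%, 34.1%, 11.0% and 19.6%. The share was thus higher with Lgr5 in 3 libraries and lower in Tnfr2-/- TNF, where 38 thinned cells had Lgr5. The intervals of that library, 6.02 to 31.3% with Lgr5 and 10.2 to 32.4% without, overlap widely, so they give no direction. In wildtype TNF and Tnfr2-/- untreated the intervals overlap in part.

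Clca4a, a gene of mature colonocytes, had 1149, 747, 244 and 1196 epithelial UMIs, which are 22.8, 18.1, 4.82 and 30.1 CPM. Tnfr2-/- untreated was the lowest library. Absorptive cells had 65.6, 113, 31.5 and 0 CPM, the last from 1 cell, which allows up to 71.4 CPM, and the third from 11 cells. In Progenitor.2 the level was 46.5, 33.0, 20.6 and 35.4 CPM, so that the lowest library was again Tnfr2-/- untreated. Absorptive cells held 91.6%, 13.1%, 6.97% and 0% of the gene's UMIs and Progenitor.2 held 6.79%, 56.0%, 83.6% and 99.8%. In Progenitor.1 the gene was near 0 except in wildtype TNF, with 0.651, 11.3, 0.163 and 0.390 CPM. A UMI was found in 9.93%, 12.9%, 2.93% and 9.09% of epithelial cells, against 0.103% of mesenchymal cells. A single Enteroendocrine cell of Tnfr2-/- untreated held all 17 UMIs of that class.

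Clca4b, its close relative, had 1639, 5346, 469 and 2610 epithelial UMIs, which are 32.6, 129, 9.26 and 65.6 CPM. Wildtype TNF was the highest library and Tnfr2-/- untreated the lowest. In Progenitor.2 the level was 95.3, 321, 36.6 and 75.1 CPM, with a UMI in 33.9%, 61.9%, 15.5% and 23.5% of the cells. Absorptive cells had 85.6, 577, 137 and 1047 CPM, the last from the 1 cell of this class in its library. In wildtype TNF all 19 Absorptive cells had a Clca4b UMI, against 148 of 319 in wildtype untreated, at median depths of 40865 and 40871 UMIs. Progenitor.1 again had more in wildtype TNF than elsewhere, with 3.55, 35.7, 0.871 and 6.05 CPM. Enteroendocrine cells had 0 UMIs of Clca4b in every library.

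Although the 2 genes share classes, most single cells with many UMIs of the pair held mainly one of them. In cells with at least 10 UMIs of the pair together, a minimum set after the values were seen, the share of Clca4a lay near 0 or near 100% more often than between. Of 328 such cells, 213 had at most 10% Clca4a, 46 had at least 90%, and 69 lay between. In the 4 libraries 44, 120, 9 and 40 cells had at most 10%, and 26, 8, 6 and 6 had at least 90%. In wildtype TNF Clca4a was 12.3% of the UMIs of the pair over all epithelial cells. A share of at most 10% in a cell of that library is thus close to the share of the whole. By library 11 of 81, 25 of 153, 6 of 21 and 27 of 73 cells lay between, which is 13.6%, 16.3%, 28.6% and 37.0%. Clca4a was at 0 in 38, 88, 7 and 30 of these cells and Clca4b at 0 in 18, 6, 5 and 2. One cell held 94 UMIs of Clca4a with 0 of Clca4b and another held 141 of Clca4b with 0 of Clca4a. With at least 20 UMIs of the pair, 11.4%, 18.8%, 38.5% and 40.8% of cells lay between. The transcripts are of nearly equal length, at 3004 and 2997 bases. The sources used here do not state how reads that match both genes were counted.

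**Figure D4:**
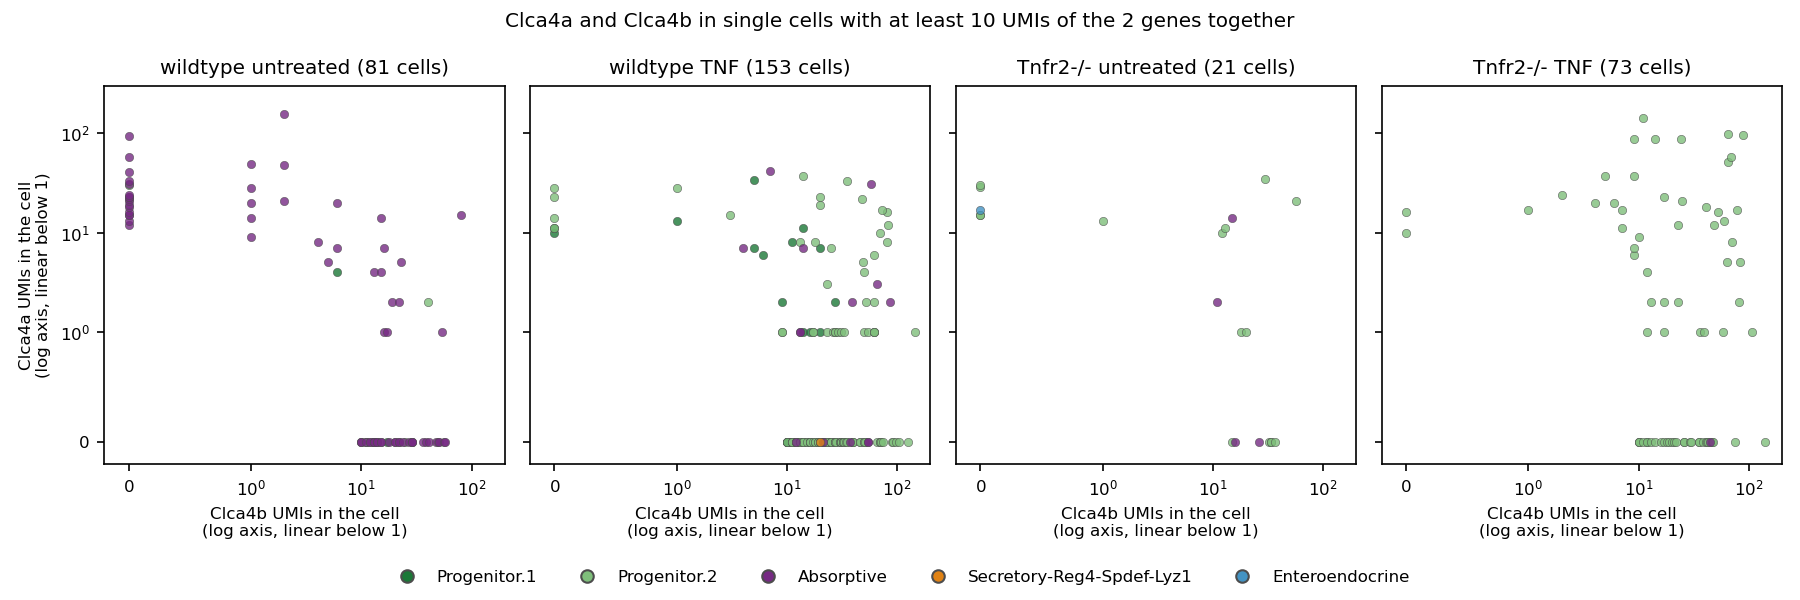
UMIs of Clca4b (x axis) and Clca4a (y axis) per cell for epithelial cells with at least 10 UMIs of the pair, in 1 panel per library. Colours give the class, both axes are linear below 1 and logarithmic above, and of the 81, 153, 21 and 73 cells 11, 25, 6 and 27 have between 10% and 90% Clca4a.

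Summed over cells, Clca4a made up 41.2% of the UMIs of the pair in wildtype untreated (39.4 to 43.1%, exact Clopper-Pearson interval, counting error only), 12.3% in wildtype TNF, 34.2% in Tnfr2-/- untreated and 31.4% in Tnfr2-/- TNF. Wildtype TNF stood apart within Progenitor.2 as well, where the shares were 32.8%, 9.31%, 36.0% and 32.0%.

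Cells of each kind also differed in other colonocyte genes. Among Absorptive cells of wildtype untreated, 25 cells had at least 90% Clca4a and 37 had at most 10%. Car4, a membrane-bound carbonic anhydrase of surface colonocytes, stood at 1599 CPM in the first and 42.8 CPM in the second, with a UMI in 19 of 25 and 2 of 37 cells. Aqp8, a water channel of the colonic surface, stood at 2169 and 140 CPM, and Krt20, a keratin of differentiated cells, at 1572 and 272 CPM. Slc26a3, the chloride and bicarbonate exchanger, was at 235 and 61.7 CPM. Car1, a cytosolic carbonic anhydrase, went the other way, with 5202 and 12018 CPM. The proliferation gene Mki67 was at 0 in the first, from a sum that allows up to the interval bound of 4.76 CPM, and at 12.9 CPM in the second. The median depth of the first was 26821 UMIs and that of the second 52520 UMIs, and the part of depth in these values was not tested. After thinning to 5000 UMIs, Clca4a was found in 44.6% of 56 Absorptive cells with Car4 and in 8.81% of 261 without, and Clca4b in 16.1% and 19.5%.

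The difference between the 2 kinds of cell was not the same in every library. In Progenitor.2 of wildtype TNF the 5 cells with at least 90% Clca4a had 1737 CPM of Krt20 against 454 CPM in the 91 cells with at most 10%, 128 against 2896 CPM of Car1 and 408 against 59.3 CPM of Aqp8. In Progenitor.2 of Tnfr2-/- TNF, with 6 and 38 such cells, Krt20 was at 250 and 182 CPM, Aqp8 at 0 and 25.1 CPM and Car1 at 374 and 3477 CPM. The 0 of Aqp8 rests on 6 cells, with an interval bound of 14.8 CPM, and only 4 of the 38 cells had a UMI of it. Car1 was thus lower in the Clca4a cells than in the cells with at most 10% Clca4a in each of the 3 settings. Aqp8 was higher in the Clca4a cells in the 2 wildtype settings and at 0 in the third. Cells of these settings with fewer than 10 UMIs of the pair had 10448, 449 and 239 CPM of Car1. Car1 in the Clca4a cells was below these values in the 2 wildtype settings and above in Tnfr2-/- TNF. In the cells with at most 10% Clca4a it was above them in each setting. In all Progenitor.2 cells of Tnfr2-/- TNF, thinned to 5000 UMIs, Clca4a was found in 28.3% of 92 cells with Clca4b and in 1.46% of 618 without. In Absorptive cells of wildtype untreated these shares were 16.7% and 14.8%.

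The first comparison asked how the Tnfr2-/- culture differed from wildtype without TNF. Clca4a and Clca4b were lower in Tnfr2-/- and Clca3b was little higher. The log2 difference of (CPM + 1) over all epithelial cells, as Tnfr2-/- minus wildtype, was −2.03 for Clca4a, with CPM 4.74-fold lower (4.12 to 5.46, exact counting interval). For Clca4b it was −1.71, with CPM 3.52-fold lower (3.17 to 3.91), and for Clca3b 0.49, with CPM 1.43-fold higher (1.31 to 1.55). Folds are plain ratios of CPM, and the log2 scale with 1 CPM added understates the difference of low genes such as Clca1. Of the 3 members with at least 20 CPM in 1 of the libraries, 2 were at least 2-fold lower, against 3.59% of 6021 genes, and 0 were at least 2-fold higher, against 2.42%. Clca1 was under that level, with 0.397 and 1.54 CPM, a difference of 0.86 and a 3.88-fold ratio (2.35 to 6.69). Without the cell that holds the most Clca4a in each library, wildtype untreated had 19.7 CPM of it, so that 20 CPM was no longer reached and 1 member remained lower.

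Within classes the same genotype comparison looked different for Clca3b. In Progenitor.2 it was 9.52-fold higher in Tnfr2-/- (4.33 to 26.1, from 337 and 6 UMIs), while in Progenitor.1 it was 1.17-fold lower (1.06 to 1.28). Clca4a was 2.26-fold lower and Clca4b 2.60-fold lower in Progenitor.2, and Clca4b was 4.07-fold lower in Progenitor.1. Clca1 was 4.53-fold higher in Secretory-Reg4-Spdef-Lyz1 (2.29 to 9.76). The wildtype class levels weighted by the class shares of Tnfr2-/- gave 10.3 CPM of Clca4a, between the 22.8 CPM of wildtype and the 4.82 CPM of Tnfr2-/-. For Clca4b they gave 22.2 CPM, between 32.6 and 9.26 CPM. The Tnfr2-/- class levels with the wildtype shares, which rest on 11 Absorptive cells, gave 11.2 CPM of Clca4a and 45.5 CPM of Clca4b. The part of the class mix in the genotype difference was not tested. The 12 absorptive genes at this level (Car1, Car4, Krt20 and others) were all at least 2-fold lower, with a median log2 difference of −3.08 against 0.11 over all genes. Of 9 goblet mucus genes, Muc2 and Zg16 were lower and none was higher.

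With TNF in both cultures, Clca3b was lower in Tnfr2-/- and the other members differed by less than 2-fold or were rare. Clca3b had a difference of −1.49, with CPM 2.87-fold lower (2.68 to 3.08). Clca4b had −0.97, with CPM 1.97-fold lower (1.88 to 2.07) and thus just under the 2-fold mark, and Clca4a had 0.70, with CPM 1.67-fold higher (1.52 to 1.83). Among the 3 members tested 1 was lower, against 6.37% of 6073 genes, and 0 were higher, against 5.04%. Clca1, under 20 CPM in both, had −1.60, with CPM 3.89-fold lower (3.10 to 4.93). The count of lower members was 2, Clca3b and Clca4b, without the top cell of each library, and Clca4a passed 2-fold higher where each cell had equal weight.

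Here the classes again pulled apart. In Progenitor.1 Clca3b was 2.95-fold lower in Tnfr2-/- (2.59 to 3.38), Clca4b 5.91-fold lower (4.12 to 8.77) and Clca4a 28.9-fold lower, with a wide interval of 7.91 to 240.4 from 2 and 206 UMIs. In Progenitor.2 Clca3b was 3.44-fold higher (2.76 to 4.34), Clca4a differed by 1.07-fold (0.960 to 1.20) and Clca4b was 4.27-fold lower (4.06 to 4.49). Clca4b was therefore lower in both classes by more than in the whole epithelium. The wildtype class levels weighted by the shares of Tnfr2-/- gave 277.6 CPM of it, above the 129 CPM of wildtype itself, since Tnfr2-/- TNF consists mostly of Progenitor.2. Of 11 goblet mucus genes 7 were lower, Muc2, Zg16 and Agr2 among them, and of 10 absorptive genes 4 were lower, while none of either list was higher.

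**Figure D5:**
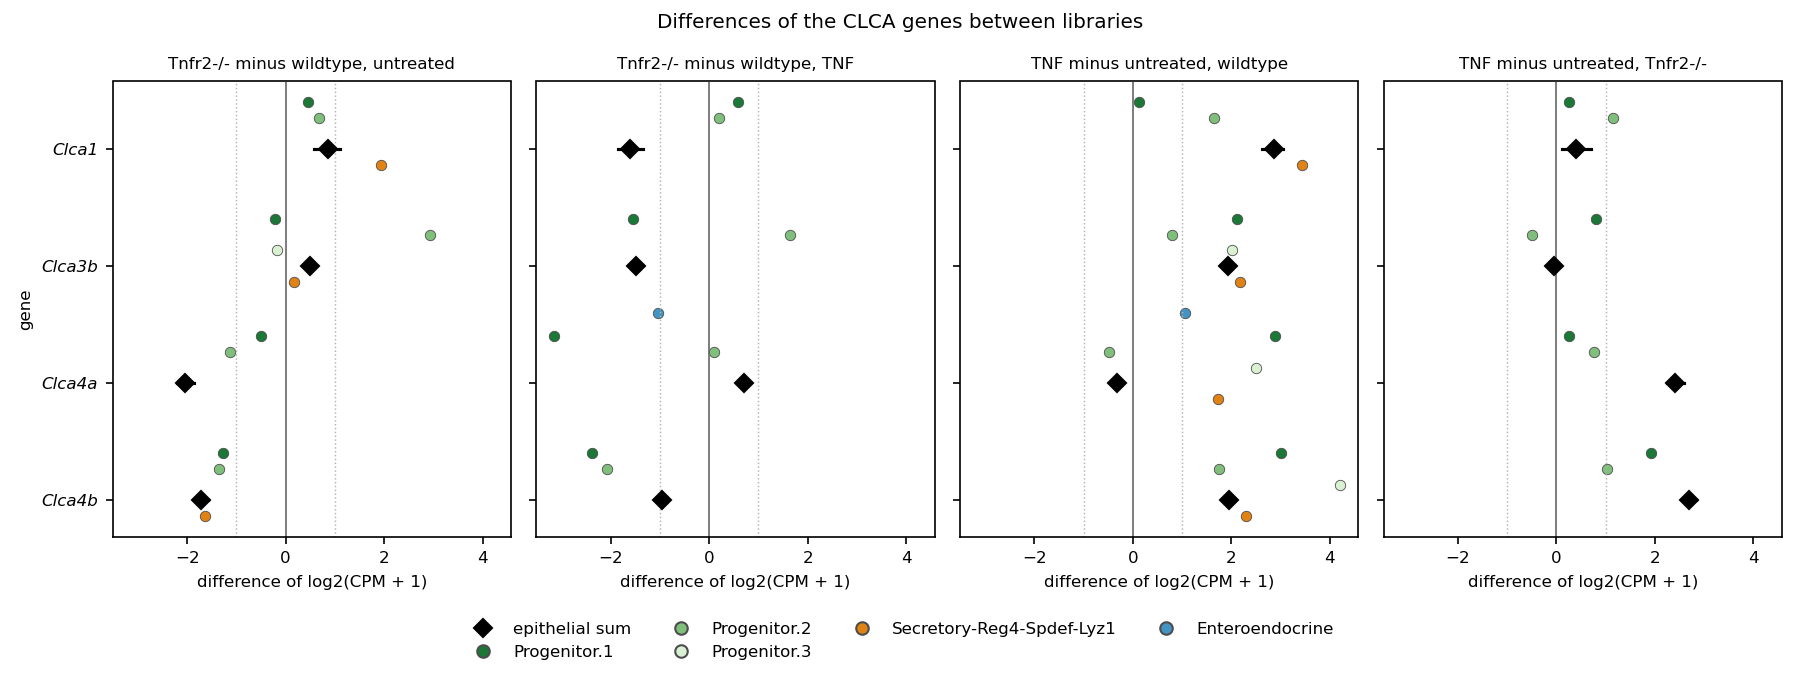
Difference of log2(CPM + 1) for each member in the 4 comparisons (Tnfr2-/- minus wildtype without and with TNF, TNF minus untreated in each genotype); diamonds are all epithelial cells, with bars for the 95% counting interval of the ratio carried to this scale with the UMIs of the pair held fixed, small points are single classes with at least 20 cells in both libraries and more than 3 UMIs in 1 of them, and dotted lines mark a difference of 1. Clca3b lies below 0 in Progenitor.1 and above 0 in Progenitor.2 in both genotype comparisons.

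In wildtype, the TNF culture had more of 3 members than the untreated culture, and Clca4a was the exception. Clca3b had a difference of 1.93, with CPM 3.96-fold higher (3.68 to 4.26), and Clca4b 1.96, with CPM 3.97-fold higher (3.76 to 4.20). Clca4a had −0.32, with CPM 1.26-fold lower (1.15 to 1.39). Of these 3 members 2 were at least 2-fold higher, against 2.54% of 5833 genes, and 0 were lower, against 1.08%. Clca1, below 20 CPM, had a difference of 2.87, with CPM 23.1-fold higher (14.8 to 38.3, from 380 and 20 UMIs). In Secretory-Reg4-Spdef-Lyz1 alone Clca1 was 13.4-fold higher (7.37 to 27.0).

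Clca3b was higher in TNF-treated wildtype in every class with enough cells and UMIs to give a ratio, by 4.46-fold in Progenitor.1 (4.13 to 4.82), 4.25-fold in Progenitor.3 (2.67 to 7.06) and 4.92-fold in Secretory-Reg4-Spdef-Lyz1 (3.31 to 7.59). In Progenitor.2 and Enteroendocrine cells the ratios of 1.94 and 2.26 had intervals that include 1. Clca4b was 10.1-fold higher in Progenitor.1 (8.13 to 12.6) and 3.37-fold higher in Progenitor.2 (2.88 to 3.97). Clca4a was 17.3-fold higher in Progenitor.1 (10.7 to 29.8) but 1.41-fold lower in Progenitor.2 (1.09 to 1.80). The class levels of the TNF culture weighted by the class shares of the untreated culture gave 84.3 CPM of Clca3b, near the 76.7 CPM of the TNF culture itself. For Clca4a and Clca4b this gave 43.8 and 216 CPM, values that rest on the 19 Absorptive cells of the TNF culture. Weighted the other way, the untreated class levels with the TNF shares gave 17.6 CPM of Clca3b, 15.9 CPM of Clca4a and 32.9 CPM of Clca4b. The untreated culture itself had 19.4, 22.8 and 32.6 CPM. Secretory-Reg4-Ang4, absent from the untreated culture, was counted as 0 in this. Muc2, Tff3, Fcgbp, Spink4, Rep15 and Gcnt3, 6 of 11 goblet mucus genes, were higher, and 8 of 13 absorptive genes were lower and 1, Guca2a, higher.

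In Tnfr2-/-, the TNF culture had more Clca4a and Clca4b than the untreated culture. Clca4a had a difference of 2.42, with CPM 6.24-fold higher (5.43 to 7.19), and Clca4b 2.70, with CPM 7.09-fold higher (6.42 to 7.84). Clca3b had −0.05, a ratio of 0.967 (0.892 to 1.05), and Clca1 had 0.40, a ratio of 1.54 (1.12 to 2.10). Of the 3 members at 20 CPM, 2 were at least 2-fold higher, against 5.55% of 6143 genes, and 0 were lower, against 7.81%. Within Progenitor.2, which went from 22.8% to 83.4% of epithelial cells between these cultures, Clca4a was 1.72-fold higher (1.48 to 2.00) and Clca4b 2.05-fold higher (1.84 to 2.30), less than over the whole epithelium. With equal weights for the classes, Clca4a was at 10.4 and 17.9 CPM and so under 20 CPM. Clca3b was 1.76-fold higher in Progenitor.1 (1.53 to 2.02) and 1.42-fold lower in Progenitor.2 (1.25 to 1.62). The untreated class levels weighted by the TNF shares gave 17.9 CPM of Clca4a and 31.3 CPM of Clca4b. Of 8 absorptive genes 6 were higher, among them Krt20 with 18.5 and 47.9 CPM, and 0 were lower.

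Genes of chloride and anion transport, the setting from which the family took its name, were counted in the same way. Of 9, 9, 9 and 8 such genes at 20 CPM in the comparisons (genotype without TNF, genotype with TNF, TNF in wildtype, TNF in Tnfr2-/-), 1, 0, 0 and 0 were at least 2-fold higher and 2, 2, 1 and 2 lower. Over all genes 2.42%, 5.04%, 2.54% and 5.55% were higher and 3.59%, 6.37%, 1.08% and 7.81% lower, and these shares are the background for every list in this paragraph. Ano1, which encodes the channel that CLCA1 acts on, had 17.2, 27.3, 24.0 and 25.8 CPM. Cftr, the main chloride channel of crypt cells, had 43.9, 41.7, 18.5 and 6.39 CPM. Among regulators of goblet cells 1 of 7, 0 of 9, 1 of 8 and 0 of 8 were higher and 0, 2, 0 and 1 were lower, and Spdef was the one higher in TNF-treated wildtype. Among proteases of mucus and cell surface, 0 of 8, 2 of 6, 0 of 8 and 0 of 5 were higher and 5, 1, 3 and 0 were lower.

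The other CLCA genes were rare. Clca2 had 0, 3, 3 and 5 epithelial UMIs and Clca3a1 had 15, 48, 22 and 11. Clca3a2, whose promoter window shares the run of 79 bases with that of Clca3b, had 17, 56, 55 and 19. For the last these are 0.338, 1.35, 1.09 and 0.478 CPM, so that wildtype TNF and Tnfr2-/- untreated stood above the other 2 libraries. Clca3b had its highest level in wildtype TNF alone.

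Genes with a pattern like that of a member were sought over 19 sums of a class in a library with at least 20 cells each, by Pearson's r of log2(CPM + 1) among 8941 genes. These sums share libraries, depth and class definitions, so r is a description. Clca4a was most like Clca4b and the reverse, with an r of 0.95, followed for Clca4a by Myl12b (0.93), Hmg20b (0.92), Chmp3 (0.92) and Rras (0.91) and for Clca4b by Tax1bp3 (0.94), Chmp2b, Ifrd1 and Clic1 (0.92 each). Likeness over class sums stands beside the single cells of the scatter of Clca4a and Clca4b counts, most of which had one gene or the other. For Clca3b the nearest were Nox1, the NADPH oxidase of colonic epithelium (0.90), Lmo4 (0.87), Cp (0.86), Nfib (0.85) and Vars (0.84). For Clca1 they were Scgb2b7 (0.92), Scgb2b20 (0.91), B4galnt2 (0.88), Bdh2 (0.88) and Ano7 (0.87). The members of unlike pairs had r between −0.12 and 0.28. By Spearman's rho 0, 4, 1 and 3 of the 5 genes of Clca1, Clca3b, Clca4a and Clca4b stayed among the 5 nearest.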

How the data were processed

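The deposited matrix holds UMI counts per gene and cell (30360 genes, 6155 cells). Per the study's methods the counts are the authors' Cell Ranger output, analysed in monocle3, where cells under 100 UMIs and epithelial and mesenchymal doublets were removed and classes were assigned; the submitters' processing notes name Cell Ranger 5.0.0 and mm10. The sources used here do not give the annotation release. Groups came from the labels, with genotype and treatment given for every cell.

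UMIs were summed per class and library and scaled to CPM. Differences are log2 of (CPM + 1). A gene was counted at a difference of 1 (2-fold) or more on this scale with at least 20 CPM in 1 library of the pair. Sums have exact Poisson intervals, shares exact Clopper-Pearson intervals and ratios exact conditional intervals, all at 95% and for counting error only. A sum of 0 is given with the limit of 3 counts. Shares of cells were also taken after thinning to 5000 UMIs, which left out 405 cells. Classes under 20 cells entered no ratio. Scrublet, run within each library, called 46 cells (0.747%) as doublets, 4 of them epithelial and 25 among the 35 cells without a class, and these cells were kept in the values reported.

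The members and gene lists were chosen with earlier results of these data known. The genes named are the 7 CLCA genes, the 5 nearest in pattern to each member, and list members by highest level or by passing 2-fold, beside Ano1 and Cftr for their roles; the cells split by Clca1 or by the share of Clca4a, and the genes given for them, are markers chosen after values were seen. The counting and the intervals were tested on simulated Poisson counts of library sums. These hold no spread between cells or cultures, so they cannot show how the intervals do with such spread. Python 3.11.15, numpy 2.4.6, scipy 1.17.1, pandas 2.3.3, scanpy 1.11.5, matplotlib 3.10.9 and, for TMM factors, edgeR 4.0.16 in R 4.3.3 were used. Other settings tried were TMM factors, pseudocounts of 0.1 and 10 CPM, cells of at least 2000 UMIs, no doublets, equal weight for each cell or class, no minimum level, other thinning and Spearman's rho.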

Additional observations from a re-analysis of the deposited data

Results flagged for a closer look

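The differences below are between single libraries and were not tested against each other. Clca4a was lower in Tnfr2-/- without TNF (log2 difference of −2.03) and higher with TNF (0.70). Its TNF difference also had opposite directions, with −0.32 in wildtype and 2.42 in Tnfr2-/-. Clca3b was higher in Tnfr2-/- without TNF (0.49) and lower with TNF (−1.49), and Clca1 likewise went from 0.86 to −1.60. With equal weights for the classes the sign turned for the TNF difference of Clca4a in wildtype (0.11). It also turned for the genotype difference with TNF of Clca4a (−0.28) and Clca1 (0.28). The opposite directions of Clca4a and Clca1 were then no longer seen, while those of Clca3b were. This setting leaves out classes under 20 cells in either library of a pair. The genotype comparison with TNF thus lost Secretory-Reg4-Spdef-Lyz1, which held 87.9% of the Clca1 UMIs of wildtype TNF. The TNF comparison in wildtype lost Absorptive, which held 91.6% of the Clca4a UMIs of the untreated culture. In the values reported, the counting interval of both ratios excluded 1, which says nothing on the spread between cultures.

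The 31 cells of wildtype untreated that have no class held 31.5 CPM of Clca3b, 24.3 CPM of Clca4a and 34.8 CPM of Clca4b, above the 0.345, 0.0287 and 0.144 CPM of mesenchymal cells of the same library. Of the 35 cells without a class in all libraries, 25 were called doublets.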

How the results depend on the processing

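No paired analysis was possible because each group has 1 library. The 4 counts of members at 2-fold or more in each direction moved as follows. Of the 2 lower members in the genotype comparison without TNF, 1 remained with equal class weights and 1 without the top cell of each library (Clca4b in both), since Clca4a came under 20 CPM. In the genotype comparison with TNF the count of higher members went from 0 to 1 (Clca4a) with equal weight per cell, and that of lower members from 1 to 2 (Clca3b, Clca4b) with equal class weights, without the top cell, and without Progenitor.3 and Secretory-Reg4-Ang4. With TNF in Tnfr2-/- 1 of 2 higher members remained with equal class weights (Clca4b). The settings without the top cell and without these 2 classes were chosen after seeing the data. Equal class weights leave out classes under 20 cells, such as Absorptive and, in Tnfr2-/- TNF, Secretory-Reg4-Spdef-Lyz1. With them the genotype difference with TNF was 0.28 for Clca1 and −0.28 for Clca4a. The TNF difference was 0.11 for Clca4a in wildtype and 0.23 for Clca3b in Tnfr2-/-. Each of these was opposite in sign to the value reported. The difference of Clca1 between the wildtype cultures ran from 0.88 to 4.22 with pseudocounts of 10 and 0.1 CPM. With no minimum level 416 and 528 genes were higher and lower in the genotype comparison without TNF, 583 and 999 with TNF, 373 and 144 for TNF in wildtype and 540 and 918 for TNF in Tnfr2-/-, against 146 and 216, 306 and 387, 148 and 63, and 341 and 480. By Spearman's rho 0, 1 and 3 of the 5 nearest genes of Clca1, Clca4a and Clca4b remained. TMM factors, doublet removal and a minimum of 2000 UMIs per cell moved none of these member counts.

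Intervals cover counting error, and the spread between cultures is unknown. Clca1 had at most 380 epithelial UMIs per library, and Absorptive cells numbered 19, 11 and 1 outside wildtype untreated.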
